A study of Mus musculus with 8 samples.

Results

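The skeletal muscle genes of mouse skin were examined as 40 genes, chosen by symbol from a list of sarcomere, calcium-handling and energy genes of the muscle sheet that lies under the dermis, out of the 22740 genes with counts. All 40 were found in the count table, and 39 passed the filter on low counts. Myh7, the slow and cardiac myosin heavy chain gene, did not pass it and is given by its counts. Membership rests on the gene symbols, with no cut on a measured value.

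RNA was sequenced from whole back skin of 8 female BALB/c mice aged 6 to 8 weeks, with 1 library a mouse and 2 mice in each of 4 groups. All mice had been raised on a diet low in fibre. Baseline CTL mice (labels: mice 1 and 2) drank plain water and had no allergen on the skin, and baseline butyrate mice (1 and 3) drank 400 mM sodium butyrate, a short-chain fatty acid that gut bacteria make from fibre. Lesional CTL mice (4 and 5) drank plain water and lesional butyrate mice (3 and 4) drank butyrate from 2 weeks before the exposure onwards, and both had house dust mite (HDM) extract, 15 µg at each of 4 exposures over 2 weeks, applied under an occlusive dressing on shaved skin to give an atopic dermatitis-like lesion. Mouse numbers are the replicate numbers of the labels and do not link mice between groups. The labels also carry a first number that differs between all baseline and all lesional mice. Its meaning was not found, so HDM exposure cannot be told apart from whatever this number stands for. For flow cytometry the study's methods describe baseline skin as shaved and given vehicle, and for the sequenced baseline skin shaving and dressing were not given in the sources used here. Nothing in the labels gives the depth to which skin was cut, and the counts do not tell the muscle sheet of the skin from skeletal muscle below it.

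Beneath the fat of the skin, rodents carry the panniculus carnosus, a thin sheet of striated muscle that moves the skin. In its fibres, myosin of the thick filaments pulls on actin of the thin filaments, troponin and tropomyosin gate this pull by calcium, Z discs anchor the thin filaments, and the sarcoplasmic reticulum releases calcium and takes it back. Fast and slow fibres use different copies of many of these genes, so that the copies present describe the type of fibre.

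The promoters below are shown because these genes carry most of the results: Acta1 had the highest level per length, Myh4 and Myh1 were the main myosins, and Tnni1 was the one tested member with a higher level in baseline butyrate mouse 3 than in mouse 1. Each line runs 5′ to 3′ on the gene's strand from 250 bases before to 50 bases after a RefSeq transcript start on GRCm38.p6. Capitals mark the E-box CAGCTG, which myogenic factors of the MyoD family can bind, the MEF2 motif and the CArG box of serum response factor. They lie at chr8:123894726-123895025 (minus strand), chr11:67237562-67237861 (plus), chr11:67199852-67200151 (plus) and chr1:135799171-135799470 (plus).
Acta1: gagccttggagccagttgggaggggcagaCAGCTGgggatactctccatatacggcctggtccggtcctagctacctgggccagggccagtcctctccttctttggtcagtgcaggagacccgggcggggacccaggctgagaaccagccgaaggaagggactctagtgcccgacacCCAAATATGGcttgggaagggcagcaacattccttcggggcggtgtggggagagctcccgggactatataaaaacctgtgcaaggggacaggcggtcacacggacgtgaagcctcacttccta
Myh4: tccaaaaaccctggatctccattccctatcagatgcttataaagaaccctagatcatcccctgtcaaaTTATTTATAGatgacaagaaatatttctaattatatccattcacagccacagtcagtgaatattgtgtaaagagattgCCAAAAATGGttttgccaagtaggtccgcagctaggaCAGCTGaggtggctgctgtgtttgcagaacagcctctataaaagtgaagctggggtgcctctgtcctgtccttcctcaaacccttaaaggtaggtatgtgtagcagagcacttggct
Myh1: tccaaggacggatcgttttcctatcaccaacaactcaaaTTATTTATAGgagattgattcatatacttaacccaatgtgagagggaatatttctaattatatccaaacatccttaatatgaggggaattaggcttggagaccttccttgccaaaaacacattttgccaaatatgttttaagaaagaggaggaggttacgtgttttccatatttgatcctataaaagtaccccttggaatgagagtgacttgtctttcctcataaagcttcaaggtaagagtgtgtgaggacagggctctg
Tnni1: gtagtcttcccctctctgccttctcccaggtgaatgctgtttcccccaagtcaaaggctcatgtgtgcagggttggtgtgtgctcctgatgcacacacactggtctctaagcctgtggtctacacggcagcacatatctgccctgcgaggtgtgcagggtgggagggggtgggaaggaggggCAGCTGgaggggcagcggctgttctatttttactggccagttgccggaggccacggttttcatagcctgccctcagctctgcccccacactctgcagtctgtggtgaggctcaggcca
The printed Acta1 window holds a CAGCTG at -221 to -216 and a CArG box at -73 to -64, counted from the transcript start. Myh4 holds all of them, with the MEF2 motif at -182 to -173, the CArG box at -104 to -95 and CAGCTG at -67 to -62. The Myh1 window holds a MEF2 motif at -211 to -202, and the Tnni1 window a CAGCTG at -68 to -63. No 2 of these marked sites overlap.

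Promoters were matched for 31 of the 40 genes, with 37 windows, some of which overlap where a gene has several starts. CAGCTG, searched on both strands, was present in 51.4% of the 37 windows (17 genes) and in 16.3% of all 32851 mouse promoter windows of this length. The MEF2 motif was present in 18.9% of the members' windows (7 genes) against 3.19% of all, and the CArG box in 10.8% (3 genes) against 1.63%. The looser E-box CANNTG, which includes CAGCTG, was in 83.8% against 72.3%, and TATAAA in 16.2% against 13.6%. A match of letters is a description of these windows and not a site of binding.

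Levels are given as CPM, each gene's counts relative to the library total after TMM scaling, and levels of single genes are set against each other only as CPM per kb of exon. Shares of the members' summed CPM are compared between libraries and are not adjusted for length. The 8 libraries held 18004136 to 21085544 counts. The 40 genes together took up 7.73% and 8.88% of all counts in the baseline CTL libraries, 8.68% in baseline butyrate mouse 1 and 2.03% in baseline butyrate mouse 3. In lesional skin they took up 3.50% and 4.73% in the CTL mice and 2.66% and 4.89% in the butyrate mice. The Wilson 95% interval of the lowest share was 2.03% to 2.04% and that of the highest 8.86% to 8.89%, so counting error, which is all that such an interval covers, is small beside the differences between mice. As these are shares of the counts of whole pieces of skin, less muscle in a piece, less RNA per fibre and more RNA of other tissues cannot be told apart.

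**Figure D1:**
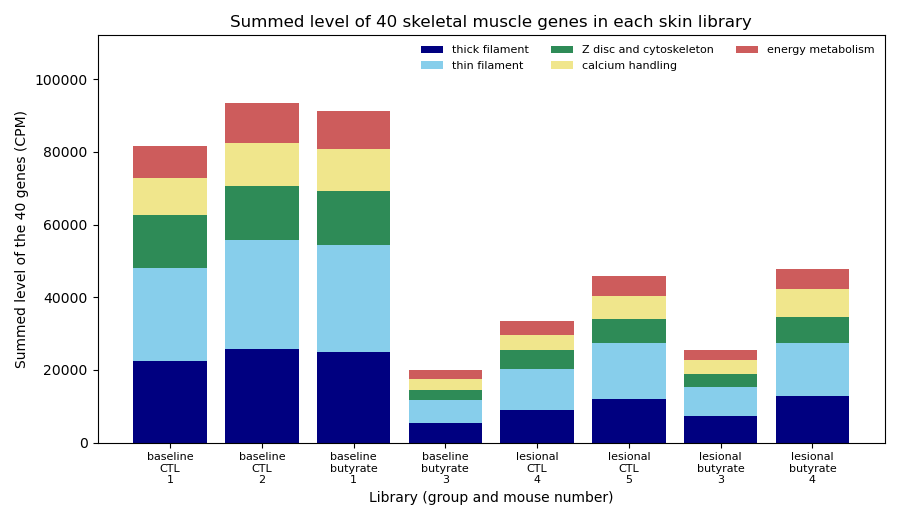
Summed level of the 40 skeletal muscle genes (CPM after TMM scaling) in each of the 8 libraries, as stacked bars for the 5 roles. The 3 tall bars are the baseline libraries other than baseline butyrate mouse 3 (81739 to 93411 CPM), and the other 5 bars lie between 19851 and 47750.0 CPM.

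The summed level of the members was 87575 ± 8253 CPM (mean ± SD, n = 2) in baseline CTL skin, 55565 ± 50508 CPM (n = 2) in baseline butyrate skin, 39755 ± 8754 CPM (n = 2) in lesional CTL skin and 36672 ± 15666 CPM (n = 2) in lesional butyrate skin. Lesional CTL skin was thus 2.20-fold below baseline CTL skin, with no overlap between the mice. The baseline butyrate mean joins a mouse at 91280 CPM, inside the range of the CTL mice, with one at 19851 CPM, 4.60-fold lower and below every lesional library. The median level over the 40 genes had a like order, at 1194 and 1258 CPM in baseline CTL skin, 1388 and 288 CPM in baseline butyrate mice 1 and 3, 417 and 595 CPM in lesional CTL skin and 308 and 675 CPM in lesional butyrate skin.

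The library of baseline butyrate mouse 3 stands apart from the other 7, and the members' medians and counts of calls are given with and without it. Of the 39 tested members, 38 were more than 2-fold higher in baseline butyrate mouse 1 than in mouse 3, by 2.37-fold to 8.76-fold with a median of 4.49-fold over the 39, and the other one, Tnni1, was higher in mouse 3. Mouse 3 had the lowest level of all libraries for 26 of the 39 genes and lesional butyrate mouse 3 for 12. Between the mice of the other groups, the members lay more than 2-fold apart for 0 of 39 genes in baseline CTL, 1 (Pvalb) in lesional CTL and 13 in lesional butyrate skin.

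Mouse 3 of the baseline butyrate group also differed in other tissues of the skin. The 11 listed genes of the hair shaft and inner root sheath, of a list of 12, summed to 19210.5 CPM in it and to 8.32 to 16.4 CPM in the other 7 libraries. Tchh, which encodes trichohyalin of the inner root sheath, was at 6293 CPM in it and at or below 11.1 CPM elsewhere. Suprabasal keratinocyte genes summed to 2903 CPM in mouse 3 and to 14160.4 to 15292 CPM in the other baseline libraries, and dermal fibroblast genes to 3621 CPM against 6202 to 8175 CPM. The fibroblast sum was lower still in lesional butyrate mouse 3, at 3358 CPM. The part of these differences in the low muscle level was not tested.

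**Figure D2:**
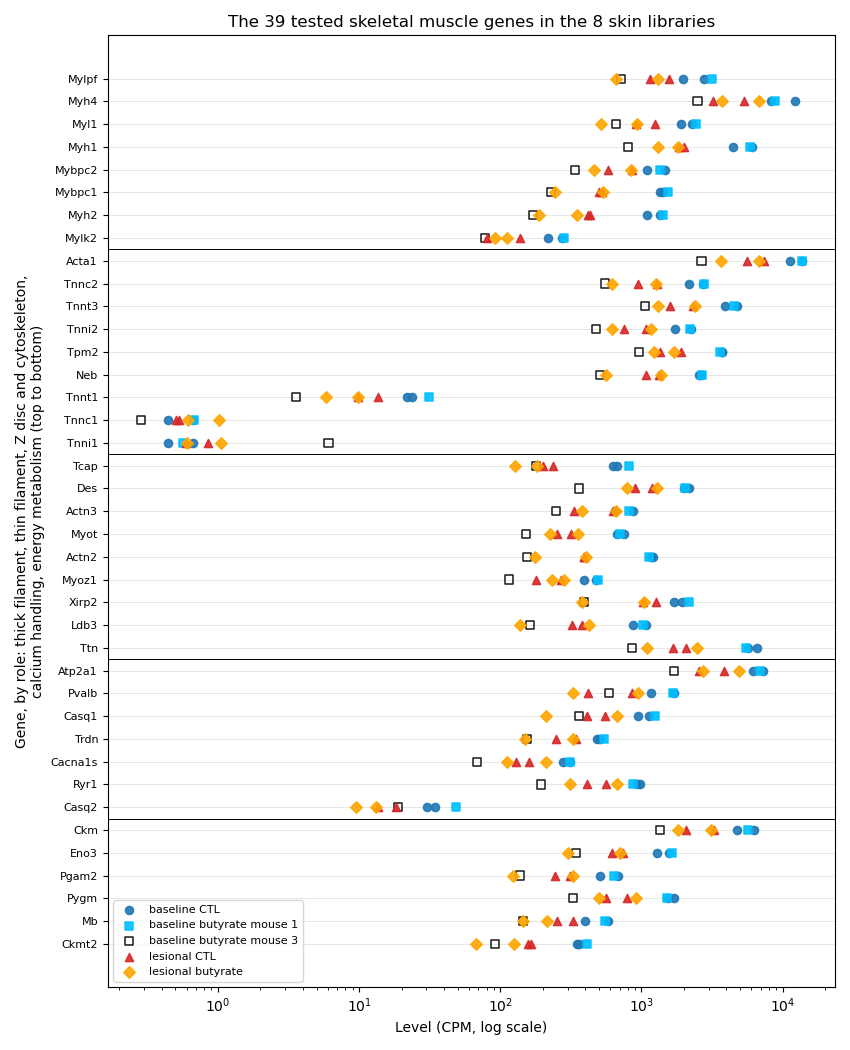
Level of each of the 39 tested members (CPM, log axis) in every library, 1 mark a mouse, with genes ordered by role and then by level per length. Baseline CTL mice and baseline butyrate mouse 1 lie to the right for 36 of the 39 genes, while baseline butyrate mouse 3 (open squares) is lowest for 26 genes and is the highest for Tnni1.

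Among the thick filament genes, Mylpf had the highest level per length, at a mean of 1567 CPM per kb over the 8 libraries. Mylpf, the fast regulatory myosin light chain, was at 1978 and 2773 CPM in baseline CTL skin, at 3156 and 722 CPM in baseline butyrate mice 1 and 3, at 1142 and 1572 CPM in lesional CTL skin, and at 665 and 1304 CPM in lesional butyrate skin. All 3 baseline libraries other than butyrate mouse 3 lay above all lesional libraries for this gene. Myl1, the fast essential light chain, ranged from 522 to 2446 CPM and Mylk2, the kinase of the fast regulatory light chain, from 77.7 to 283 CPM.

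Of the adult myosin heavy chain genes, Myh4 encodes the IIB form of the fastest fibres, Myh1 the IIX form and Myh2 the IIA form. They lie side by side on the plus strand of chromosome 11, with Myh2 at chr11:67171027-67197517, Myh1 at chr11:67200052-67224575 and Myh4 at chr11:67238029-67260446 on GRCm38. Myh4 was at 8284 and 12227 CPM in baseline CTL skin, at 8848 and 2499 CPM in baseline butyrate mice 1 and 3, at 3189.7 and 5315 CPM in lesional CTL skin, and at 3742 and 6818 CPM in lesional butyrate skin. Myh1 had 6115 and 4441 CPM in baseline CTL mice, then 5845 and 799 CPM with butyrate at baseline (mouse 3 last), 1988 and 1834 CPM in lesional CTL mice, and 1321 and 1831 CPM with butyrate in lesional skin. Myh2 was at 1348 and 1089 CPM in baseline CTL skin, at 1426 and 172 CPM in baseline butyrate mice 1 and 3, at 418 and 434 CPM in lesional CTL skin, and at 189 and 351 CPM in lesional butyrate skin. For each of the 3 genes the baseline CTL mice and baseline butyrate mouse 1 were above every other library. Myh7 had 7 and 2 counts in baseline CTL skin, 0 and 2 in baseline butyrate, 3 and 2 in lesional CTL and 1 and 7 in lesional butyrate skin, which is at or near the floor of 3 counts used here.

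Per length, Myh4 made up 54.5% and 70.5% of the summed Myh1, Myh2, Myh4 and Myh7 level in baseline CTL skin, 56.8% and 73.5% in baseline butyrate mice 1 and 3, 58.8% and 71.6% in lesional CTL skin and 72.6% and 77.1% in lesional butyrate skin. Myh1 made up 19.6% to 38.1% and Myh2 3.09% to 7.71% across the 8 libraries, so fast forms made up nearly the whole sum in every mouse. The mean Myh4 share was 62.5% ± 11.3 (SD, n = 2) at baseline CTL, 65.1% ± 11.8 (n = 2) at baseline butyrate, 65.2% ± 9.08 (n = 2) in lesional CTL and 74.8% ± 3.13 (n = 2) in lesional butyrate skin. The spread between mice of a group exceeded the differences between the first 3 groups. The lesional butyrate mice lay above both lesional CTL mice, the nearest at 72.6% and 71.6%. These shares carry an uncertainty of their own, as 26.7% of the 50-base windows of the Myh1 transcript, 26.9% of those of Myh2 and 18.9% of those of Myh4 occur also in another gene, and reads in them could have been split or lost in counting.

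**Figure D3:**
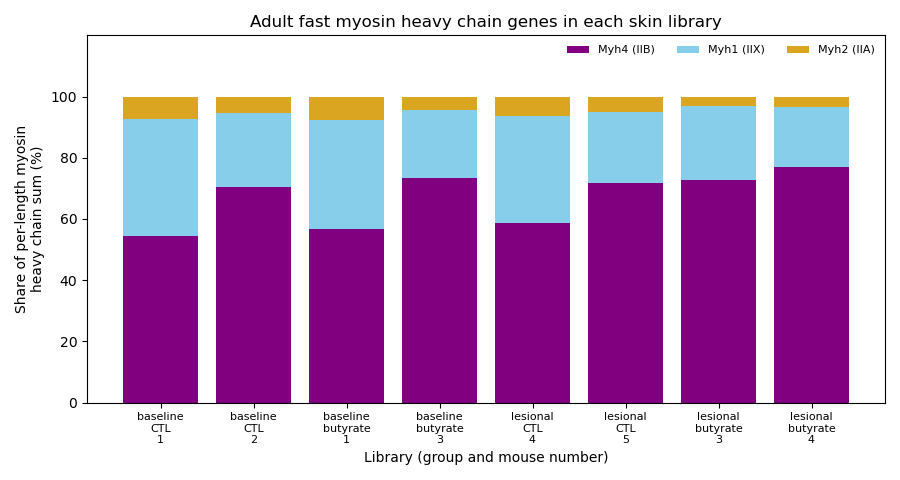
Share of Myh4, Myh1 and Myh2 in the per-length sum of the adult myosin heavy chain genes (%), 1 stacked bar a library. Myh4 was the largest share in all 8 libraries, between 54.5% and 77.1%, and Myh2 the smallest of the 3 drawn.

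The myosin binding proteins of the thick filament come in a fast form, Mybpc2, and a form named for slow fibres, Mybpc1, that fast fibres also express. Mybpc2 was at 1095 and 1463 CPM in baseline CTL skin, at 1349 and 338 CPM in baseline butyrate mice 1 and 3, at 581 and 852 CPM in lesional CTL skin, and at 465 and 849 CPM in lesional butyrate skin. Mybpc1 had 1427 and 1345 CPM in baseline CTL mice, then 1553 and 229 CPM with butyrate at baseline (mouse 3 last), 502 and 529 CPM in lesional CTL mice, and 244 and 538 CPM with butyrate in lesional skin. Per length the ratio of Mybpc2 to Mybpc1 was 0.962 and 1.36 in baseline CTL skin, 1.09 and 1.85 in baseline butyrate mice 1 and 3, 1.45 and 2.02 in lesional CTL skin, and 2.39 and 1.98 in lesional butyrate skin. The lesional mice of both treatments lay above the baseline mice, except for baseline butyrate mouse 3, which lay within their range.

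Acta1, skeletal muscle actin, had the highest level per length of all 40 genes, at a mean of 5276 CPM per kb, and made up 13.4% to 16.6% of the members' summed CPM. It was at 11296 and 13717 CPM in baseline CTL skin, at 13699 and 2667 CPM in baseline butyrate mice 1 and 3, at 5574 and 7413 CPM in lesional CTL skin, and at 3636 and 6825 CPM in lesional butyrate skin. The lesional mice lay between baseline butyrate mouse 3 and the other baseline mice. Neb, the giant thin filament protein nebulin, ranged from 510.3 to 2671 CPM and the tropomyosin gene Tpm2 from 959 to 3742 CPM.

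The fast troponin genes ran far above their slow copies. Fast troponin T, Tnnt3, was at 3940.0 and 4754 CPM in baseline CTL skin, at 4559 and 1065 CPM in baseline butyrate mice 1 and 3, at 1589 and 2329.6 CPM in lesional CTL skin, and at 1306 and 2412 CPM in lesional butyrate skin. Slow troponin T, Tnnt1, had 21.9 and 23.9 CPM in baseline CTL mice, then 31.2 and 3.56 CPM with butyrate at baseline (mouse 3 last), 13.7 and 9.80 CPM in lesional CTL mice, and 5.86 and 9.84 CPM with butyrate in lesional skin. For both genes the baseline libraries other than butyrate mouse 3 were the highest, and per length Tnnt3 was 161-fold to 416-fold above Tnnt1. Fast troponin C, Tnnc2, was at 2176 and 2749 CPM in baseline CTL skin, at 2766 and 549.7 CPM in baseline butyrate mice 1 and 3, at 942 and 1281 CPM in lesional CTL skin, and at 622 and 1266 CPM in lesional butyrate skin. Tnnc1, the troponin C of slow and cardiac muscle, was at 0.285 to 1.02 CPM, which is 6 to 22 counts a library. Tnnc1 was highest in lesional butyrate mouse 4, and at such counts it was called in no comparison of all 8 mice.

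Tnni2, the fast troponin I gene, was at 1741 and 2251 CPM in baseline CTL skin, at 2197 and 476 CPM in baseline butyrate mice 1 and 3, at 752 and 1083 CPM in lesional CTL skin, and at 618 and 1168 CPM in lesional butyrate skin. Its slow copy Tnni1 had 12 and 8 counts in baseline CTL skin, 10 and 128 in baseline butyrate mice 1 and 3, 16 and 13 in lesional CTL and 22 and 13 in lesional butyrate skin. Tnni1 was thus at 6.08 CPM in baseline butyrate mouse 3, the library with the least of most other members, and at most 1.05 CPM elsewhere. Of the other genes listed for slow fibres, Tnnt1, Tnnc1 and Mybpc1 were lowest in that library, while Casq2 and Myh7 were not.

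In the Z disc and cytoskeleton, Tcap had the highest level per length, with a mean of 401 CPM per kb. Tcap, or telethonin, which caps titin at the Z disc, was at 627 and 673 CPM in baseline CTL skin, at 814 and 179 CPM in baseline butyrate mice 1 and 3, at 201 and 237 CPM in lesional CTL skin, and at 127 and 181 CPM in lesional butyrate skin. The lesional libraries and baseline butyrate mouse 3 lay together, below the other baseline libraries by more than 2-fold. Actn3, the alpha-actinin of fast fibres only, was at 655 and 868 CPM in baseline CTL skin, at 823 and 249 CPM in baseline butyrate mice 1 and 3, at 336 and 627 CPM in lesional CTL skin, and at 379.6 and 656 CPM in lesional butyrate skin. Actn2, the alpha-actinin of all striated fibres, had 1215 and 1169.8 CPM in baseline CTL mice, then 1135 and 155 CPM with butyrate at baseline (mouse 3 last), 393 and 389.8 CPM in lesional CTL mice, and 177 and 408 CPM with butyrate in lesional skin. The ratio of Actn3 to Actn2 per length was 0.705 and 0.971 in baseline CTL skin, 0.948 and 2.10 in baseline butyrate mice 1 and 3, 1.12 and 2.10 in lesional CTL skin, and 2.81 and 2.10 in lesional butyrate skin. It was below 1 in every baseline library but that of butyrate mouse 3, and above 1 in every lesional library.

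The remaining members of this role were also highest in the baseline CTL mice and baseline butyrate mouse 1. Ttn, the molecular spring titin, ranged from 863 to 6627 CPM and the muscle intermediate filament gene Des from 359.8 to 2162 CPM. Xirp2, which encodes an actin-binding protein of cell junctions and Z discs, ranged from 379.6 to 2161 CPM, and the Z disc genes Ldb3, Myot and Myoz1 from 137 to 1074, from 151 to 748 and from 115 to 493 CPM. Of the 9 genes of this role, all had both lesional CTL mice below both baseline CTL mice, as had 38.5% of all tested genes.

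Calcium handling was led per length by Atp2a1, the fast calcium pump of the sarcoplasmic reticulum, with a mean of 1299 CPM per kb. Atp2a1 was at 6149 and 7311 CPM in baseline CTL skin, at 6963 and 1689.8 CPM in baseline butyrate mice 1 and 3, at 2572 and 3835 CPM in lesional CTL skin, and at 2719 and 4897 CPM in lesional butyrate skin. Lesional butyrate mouse 4 was the highest of the lesional libraries for this gene. The calcium store proteins are Casq1 of fast fibres and Casq2 of slow and cardiac fibres. Casq1 was at 953 and 1136 CPM in baseline CTL skin, at 1248 and 363 CPM in baseline butyrate mice 1 and 3, at 411 and 555 CPM in lesional CTL skin, and at 210.0 and 677 CPM in lesional butyrate skin. Casq2 had 34.3 and 30.1 CPM in baseline CTL mice, then 48.6 and 18.8 CPM with butyrate at baseline (mouse 3 last), 18.3 and 13.6 CPM in lesional CTL mice, and 9.47 and 13.1 CPM with butyrate in lesional skin. Baseline butyrate mouse 3 was the lowest library for neither of them, and Casq2 was the single tested member with both lesional butyrate mice below both baseline butyrate mice. Pvalb, the calcium buffer parvalbumin, ranged from 328 to 1695 CPM. Ryr1 and Cacna1s, the release channel and its voltage sensor, ranged from 194 to 970.0 and from 68.9 to 313 CPM, and Trdn, their partner triadin, from 150.0 to 545 CPM.

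Among the energy genes, Ckm, the creatine kinase of muscle cytosol, had the highest level per length at a mean of 1219 CPM per kb. Ckm was at 4793 and 6269.8 CPM in baseline CTL skin, at 5664 and 1365 CPM in baseline butyrate mice 1 and 3, at 2086 and 3283 CPM in lesional CTL skin, and at 1819.9 and 3135 CPM in lesional butyrate skin. Ckmt2, its mitochondrial partner, ranged from 67.5 to 412 CPM and Mb, the oxygen store myoglobin, from 144 to 581 CPM. The genes of sugar use, Eno3 and Pgam2 of glycolysis and Pygm of glycogen breakdown, ranged from 304 to 1648, from 124 to 684 and from 327 to 1696 CPM.

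Although the summed level moved more than 4-fold, its makeup by role moved less. Thick filament genes made up 26.0% to 28.4% of the members' summed CPM over the 8 libraries, thin filament genes 30.9% to 33.7% and energy genes 11.1% to 12.2%. Z disc and cytoskeleton genes made up 13.3% to 18.1%, lowest in baseline butyrate mouse 3, and calcium-handling genes 12.2% to 16.2%, highest in lesional butyrate mouse 4.

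HDM exposure was compared in CTL mice first. A gene was called at a Benjamini-Hochberg false discovery rate (FDR) below 0.1 and a fold-change above 2, in edgeR's quasi-likelihood test over all 8 mice. Of the 39 tested members, 38 had a log2 fold-change below 0 between lesional and baseline CTL skin and Tnni1 one above 0, with a median log2 fold-change of -1.10 beside -0.02 over all 15163 tested genes. Both lesional CTL mice lay below both baseline CTL mice for 37 of the 39, as for 38.5% of all tested genes. None of the 39 was called by edgeR, while 543 genes were (3.58%), 183 of them lower (1.21%). The smallest member FDR was 0.251, for Tcap with a log2 fold-change of -1.57 ± 0.64 (SE), which was also the only member with an unadjusted p below 0.05. DESeq2 called Tcap and limma-voom no member.

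The spread that this test uses is shared by the 4 groups, and so includes the gap between baseline butyrate mice 1 and 3. Without baseline butyrate mouse 3, whose group then rests on 1 mouse assumed to vary like the other groups, edgeR called 22 of the 39 members lower in lesional CTL skin, beside 939 of 15349 genes (6.12%). Fitting the 4 CTL mice alone gave 25 members, all lower, beside 953 of 14863 genes (6.41%). The median log2 fold-change of the members was -1.10 with and without that mouse. Without it, the smallest FDR was 0.00484 for Tcap (-1.57 ± 0.20 on the log2 scale), followed by 0.0117 for Myh1 (-1.46 ± 0.26) and 0.0141 for the Z disc gene Myot (-1.32 ± 0.24).

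The 22 genes came from every role. They were 5 of 8 tested thick filament genes, 5 of 9 thin filament genes (Neb, Tnnc2, Tpm2, Tnni2 and Tnnt3), 5 of 9 Z disc and cytoskeleton genes (Tcap, Actn2, Ldb3, Myot and Ttn), 3 of 7 calcium-handling genes (Cacna1s, Casq2 and Atp2a1) and 4 of 6 energy genes (Eno3, Ckmt2, Pygm and Ckm). The thick filament genes were Mybpc1, Myh2, Myh1, Myh4 and Mylk2. Genes listed for fast fibres and genes listed for slow fibres (Mybpc1 and Casq2) were both among those called. With all 8 mice, all 14 genes listed for fast fibres had a log2 fold-change below 0. So had 4 of the 5 tested genes listed for slow fibres. Without baseline butyrate mouse 3, Ttn had the lowest value at -1.71 ± 0.39 on the log2 scale. In that same fit Actn3 (-0.66 ± 0.38), Xirp2 (-0.67 ± 0.45) and Tnnc1 (-0.09 ± 0.47) were among the members not called.

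In butyrate-treated mice, lesional skin was compared with baseline skin in the same fit. The median log2 fold-change of the 39 members was -0.81, beside -0.04 over all tested genes, and 38 members had a value below 0, the exception being Tnnc1 (0.79 ± 0.54). Mice of the groups did not overlap for 1 member, Casq2, which was lower in lesional skin (-1.57 ± 0.45, FDR 0.277 in edgeR), beside 16.9% of all genes. edgeR called no member, and 53 genes in all (0.35%), 11 of them lower (0.0725%). Casq2 and Tcap (-1.69 ± 0.65) had an unadjusted p below 0.05, and DESeq2 called both of these 2 genes.

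Without baseline butyrate mouse 3, edgeR called 17 of the 39 members lower in lesional butyrate skin, beside 528 of 15349 genes (3.44%), and the median log2 fold-change was -1.46. This comparison sets 2 lesional mice against 1 baseline mouse. Tcap had -2.40 ± 0.23 with an FDR of 0.0178, Casq2 -2.10 ± 0.24 with 0.0248 and Myh2 -2.40 ± 0.35 with 0.0346. Leaving out baseline butyrate mouse 1 in its place turned the median to 0.86, and edgeR then called 8 members, 7 of them higher in lesional skin, beside 1742 of 15677 genes called higher (11.1%). The sign of the members' median in butyrate-treated mice thus depends on which of the 2 baseline mice is kept.

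**Figure D4:**
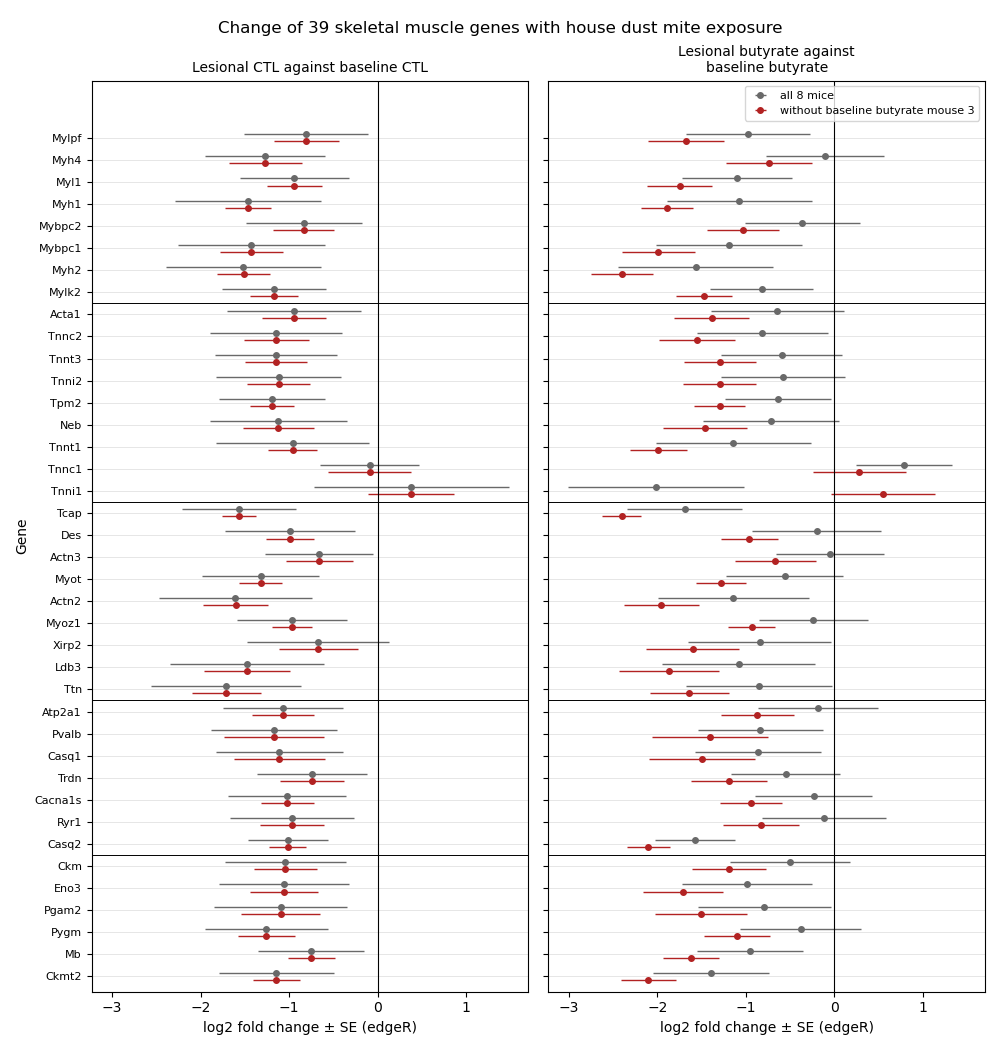
Log2 fold-change ± SE (edgeR) of the 39 tested members with HDM exposure, in CTL mice (left) and butyrate-treated mice (right), from all 8 mice (grey) and without baseline butyrate mouse 3 (red). Medians were -1.10 for both fits on the left, and -0.81 and -1.46 on the right, where the values move with the mouse left out.

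Fibre-type partners are set side by side next. In CTL mice without baseline butyrate mouse 3, Myh2 (-1.52 ± 0.30), Actn2 (-1.61 ± 0.37) and Mybpc1 (-1.43 ± 0.35) were lower than their fast-fibre partners Myh4 (-1.27 ± 0.41), Actn3 (-0.66 ± 0.38) and Mybpc2 (-0.84 ± 0.34). In butyrate-treated mice the same pairs had -2.40 ± 0.35 and -0.74 ± 0.49, -1.95 ± 0.43 and -0.67 ± 0.45, and -1.99 ± 0.41 and -1.04 ± 0.41. The 4 other pairs went the other way in CTL mice, with Casq1 at -1.11 ± 0.51 and Casq2 at -1.01 ± 0.21, Tnnt3 at -1.15 ± 0.35 and Tnnt1 at -0.96 ± 0.27, Tnni2 at -1.12 ± 0.35 and Tnni1 at 0.38 ± 0.48, and Tnnc2 at -1.15 ± 0.37 and Tnnc1 at -0.09 ± 0.47. In butyrate-treated mice Casq2 (-2.10 ± 0.24) and Tnnt1 (-1.99 ± 0.32) were below Casq1 (-1.49 ± 0.60) and Tnnt3 (-1.29 ± 0.41), and Tnni1 (0.55 ± 0.59) and Tnnc1 (0.28 ± 0.53) above Tnni2 (-1.30 ± 0.41) and Tnnc2 (-1.55 ± 0.43). Myh2 is itself a fast form and Actn2 belongs to all striated fibres, so their pairs do not set a fast copy against a slow one. In the other pairs, Casq2, Tnnt1, Tnni1 and Tnnc1 lay above their fast copies in CTL mice and Mybpc1 below. In butyrate-treated mice only Tnni1 and Tnnc1, which had few counts, lay above. Mybpc1, Tnni1 and Tnnc1 thus kept the same side of their fast copies in CTL and butyrate-treated mice, while Casq2 and Tnnt1 changed side. No direction was shared by all of these pairs, and the difference within pairs was not tested. For butyrate-treated mice these fold-changes rest on baseline butyrate mouse 1 alone at baseline. The per-length ratio of Myh4 to Myh2 was 7.29 and 13.3 in baseline CTL skin and 7.36 and 17.3 in baseline butyrate mice 1 and 3. It was 9.06 and 14.5 in lesional CTL skin and 23.5 and 23.1 in lesional butyrate skin. Both lesional butyrate mice thus lay above every other library, and this difference was not tested.

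Butyrate was compared with CTL within lesional skin and within baseline skin. In lesional skin edgeR called no member and no other gene (0%), with 0 members and 734 genes at an unadjusted p below 0.05, and limma-voom and DESeq2 called no member either. The members' median log2 fold-change was -0.14, beside -0.01 over all genes, and the members ranged from -0.74 ± 0.65 for Ckmt2 to 0.65 ± 0.53 for Tnnc1. Without baseline butyrate mouse 3 edgeR called 187 of 15349 genes (1.22%), 136 of them lower, and again no member, with the same median of -0.14. The groups did not overlap for 7 of 39 members, beside 44.9% of all genes. These were Ckmt2, Mb, Myh2, Tcap, Casq2 and Myh1, lower in the butyrate mice, and Tnnc1, higher in them. Lesional butyrate mouse 3 was below both lesional CTL mice for 32 of the 39 members, while mouse 4 was below both for 6 and above both for 20.

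In baseline skin edgeR again called no gene (0%) in butyrate against CTL mice. One member, Tnni1, had an unadjusted p below 0.05 (2.58 ± 1.05 on the log2 scale, FDR 0.714), as had 529 genes in all. The median of the members was -0.60, beside 0.00 over all genes, and became 0.13 without baseline butyrate mouse 3. Groups did not overlap for 5 of 39 members, Ttn, Actn2, Ryr1, Pygm and Tpm2, all lower in the butyrate mice, beside 29.7% of all genes. Whether butyrate acted differently in lesional than in baseline skin was tested with an interaction term, and edgeR called no member and no other gene (0%), with 0 members and 703 genes at an unadjusted p below 0.05. The members' median difference was 0.39, and became -0.34 without baseline butyrate mouse 3. Without that mouse edgeR called no gene in the comparison at baseline or in the difference, with 346 and 1353 genes at an unadjusted p below 0.05, and with all 8 mice limma-voom and DESeq2 called no member in either.

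Other genes of muscle were taken from lists that do not overlap with the 40. For these lists and the atrophy list, the shares of all tested genes called lower in the same comparisons and fits are given above. Of 27 tested further genes of the sarcomere and the triad, edgeR called 0 in lesional against baseline CTL skin (median log2 fold-change -1.22) and 21 lower ones without baseline butyrate mouse 3, among them Csrp3, Myoz2 and Myom2. Csrp3, the muscle LIM protein of the Z disc, was at 343 and 383 CPM in baseline CTL skin, at 450.1 and 29.0 CPM in baseline butyrate mice 1 and 3, at 82.7 and 78.4 CPM in lesional CTL skin, and at 42.7 and 61.0 CPM in lesional butyrate skin. Of 14 genes of muscle metabolism, 0 were called with all mice (median -1.04) and 7 lower ones without that mouse, among them Ucp3 and Apobec2. Of 11 tested genes of the neuromuscular junction, 0 (median -1.01) and 4 were called, and of 8 tested genes of myogenic regulation and regeneration, 0 (median -0.80) and 2, Myh8 and the satellite cell gene Pax7.

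The atrophy list had calls from all 8 mice. Of its 7 genes, edgeR called 2 lower in lesional than in baseline CTL skin, beside 1.21% of all tested genes. The list median was -1.39. Without baseline butyrate mouse 3, 4 were called lower in CTL mice (Mstn, Fbxo32, Trim63 and Klf15) and 3 in butyrate-treated mice (Mstn, Trim63 and Eda2r). Fbxo32, the ubiquitin ligase atrogin-1, was at 270.4 and 129.8 CPM in baseline CTL skin, at 128 and 125 CPM in baseline butyrate mice 1 and 3, at 57.1 and 82.2 CPM in lesional CTL skin, and at 56.0 and 54.1 CPM in lesional butyrate skin. Its log2 fold-change was -1.52 ± 0.36 with an FDR of 0.0986. Klf15, a transcription factor of muscle that other tissues also express, was at 25.0 and 32.6 CPM in baseline CTL skin, at 22.9 and 17.9 CPM in baseline butyrate mice 1 and 3, at 8.15 and 11.0 CPM in lesional CTL skin, and at 10.2 and 14.3 CPM in lesional butyrate skin, with a log2 fold-change of -1.59 ± 0.28 and an FDR of 0.0532. Both fell with HDM in CTL mice, and in butyrate-treated mice neither was called (-1.20 ± 0.35 and -0.73 ± 0.27). Trim63, the ligase MuRF1, had -1.39 ± 0.66 in CTL mice and was not called with all 8 mice.

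Markers of several other tissues that a piece of skin holds are given beside these results. The 9 smooth muscle genes summed to 938 to 1003 CPM in baseline CTL, 624 to 849 CPM in baseline butyrate, 516 to 562 CPM in lesional CTL and 525 to 783 CPM in lesional butyrate skin, with none of the 9 called by edgeR in any comparison of all 8 mice. Without baseline butyrate mouse 3, 3 of them (Lmod1, Synpo2 and Actg2) were called lower in lesional than in baseline CTL skin and 1 (Synpo2) in butyrate-treated mice. Heart was checked as another source of striated muscle transcripts, and its 7 genes summed to 13.6 to 48.4 CPM. Nppa was at 0 counts in every library, Myh6 at or below 0.388 CPM and Tnnt2 at 4.97 to 10.8 CPM. Actc1, the cardiac actin gene, which skeletal muscle also expresses, ranged from 2.00 to 33.9 CPM and was called lower with HDM in CTL and in butyrate-treated mice without baseline butyrate mouse 3, and in neither with all 8 mice. The 10 adipocyte genes summed to 2550.4 to 3594 CPM in baseline and 2147 to 2790.2 CPM in lesional skin.

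The 6 suprabasal keratinocyte genes found, of a list of 7, summed to 15292 and 14315 CPM in baseline CTL, 5266 and 6259 CPM in lesional CTL and 14948 and 11396 CPM in lesional butyrate skin. In lesional against baseline CTL skin edgeR called none of these 6 with all 8 mice, where 2 had an unadjusted p below 0.05, and 3 lower ones (Krt10, Krt1 and Lor) without baseline butyrate mouse 3. Of 7 neutrophil genes, all were called higher in lesional than in baseline CTL skin by edgeR, and they summed to 19.4 to 31.5 CPM in baseline skin, 1739 to 2813 CPM in lesional CTL and 367 to 795 CPM in lesional butyrate skin. The 6 endothelial genes summed to 226 to 237 and 279 to 289.8 CPM in baseline CTL and lesional CTL skin, and the 7 dermal fibroblast genes to 6202 to 7364 and 6256 to 6960.1 CPM. In lesional butyrate mice 3 and 4 the fibroblast sums were 3358 and 8463 CPM. The part of these tissues in the muscle level was not tested.

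**Figure D5:**
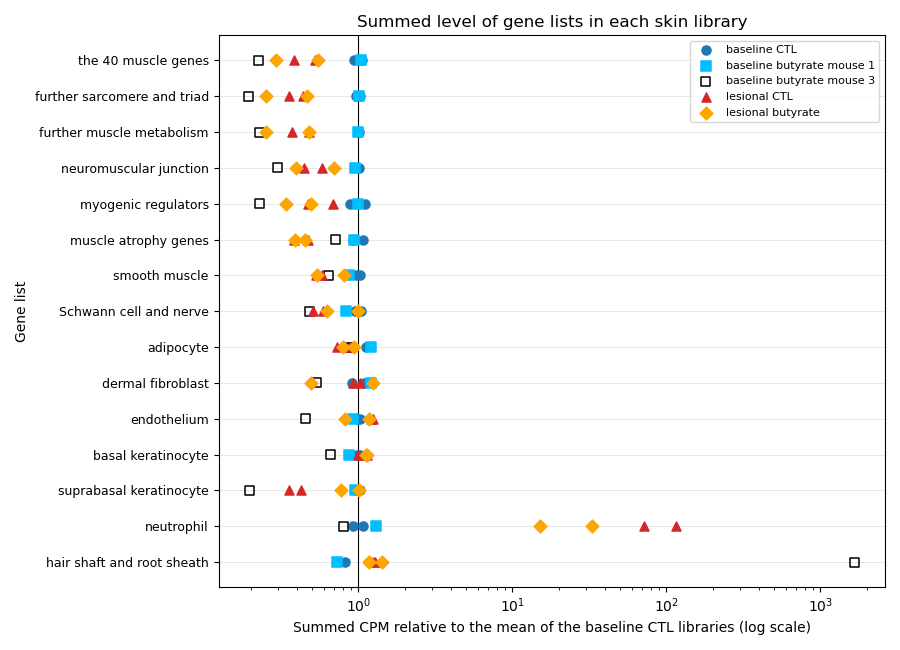
Summed CPM of the 40 muscle genes and of 14 other gene lists in each library, relative to the mean of the baseline CTL libraries (log axis, black line at 1). The 5 further muscle lists lie left of the line in lesional skin, as the 40 genes do. So do lists of other tissues, among them smooth muscle and adipocyte genes. Neutrophil genes lie to the right, and baseline butyrate mouse 3 (open squares) stands out for the hair list.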

How the data were processed

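Gene counts of whole skin from 8 mice in 4 groups were analysed. The series' design text speaks of 16. Per the paper's methods and the labels, the authors aligned reads to GRCm38 with STAR 2.5.2 (submitters' processing notes) through RNASik, counted them with featureCounts and deposited raw counts of protein-coding genes, without normalization. The table's name gives reverse-stranded counts. Groups follow the labels (vehicle: CTL, SCFA: butyrate, atopic dermatitis: lesional skin).

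CPM used TMM-scaled library sizes. Genes were filtered with filterByExpr (minimum count 10; 15163 of 22740 kept) and tested with edgeR 4.0.16 in R 4.3.3 (quasi-likelihood, robust, prior count 0.125, FDR below 0.1 and fold-change above 2). In simulated counts of 15043 genes for lesional against baseline CTL skin, the test recovered 82.5% of 200 genes changed by 2 log2 units, with 18 false calls. These changes were larger than the members' median of -1.10, the genes were drawn independently and no mouse stood apart. The recovery thus does not measure how many members with such a change would be called. Alternatives were limma-voom (limma 3.58.1), which the study used, DESeq2 1.42.0, other scalings and filters, and fits without single mice. Each library is a mouse. Exon lengths and coordinates are those of GENCODE vM21 on GRCm38, promoters those of RefSeq on GRCm38.p6, and 9 genes had none matched.

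Genes given in every library were the myosin heavy chains, the fibre-type pairs, the highest gene per length in each role and any member called with all 8 mice (none was). The members and all lists were chosen with earlier results of these data known. The test of 1 listed gene is not reported here.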

Additional observations from a re-analysis of the deposited data

How the results depend on the processing

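No paired analysis was possible because compared groups have no more than 1 mouse number in common. The number of called members was 0, as with all 8 mice, in 65 of 74 recomputed values. DESeq2 called 124 genes in lesional butyrate against lesional CTL skin, 58 in baseline butyrate against baseline CTL, 1093 in lesional against baseline CTL (1 member), 698 in lesional against baseline butyrate (2 members) and 37 in the difference between the butyrate effects, where edgeR called 0, 0, 543, 53 and 0. limma-voom called 1 gene in lesional butyrate against lesional CTL skin. With only the compared mice, 25, 1918 (25 members) and 0 genes were called for lesional butyrate against CTL, lesional against baseline CTL and lesional against baseline butyrate. With the mean log2 CPM of the members as a covariate, 120, 1559, 1574 and 6 genes were called for these 3 and for the difference between the butyrate effects. The cause was not tested.

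Leaving out 1 mouse at a time gave 0 to 191 called genes for lesional butyrate against CTL, 0 to 3777 for baseline butyrate against CTL, 0 to 1936 for lesional against baseline CTL, 0 to 2990 for lesional against baseline butyrate and 0 to 3275 for the difference between the butyrate effects. Called members were 0 to 35 for baseline butyrate against CTL, 0 to 22 for HDM in CTL mice, 0 to 17 for HDM in mice given butyrate and 0 to 28 for the difference. The highest of these counts came without baseline butyrate mouse 1 (191, 3777, 35, 1936, 22, 2990, 3275 and 28) or mouse 3 (22 and 17). The fits without baseline butyrate mouse 1 tested 15677 genes and those without mouse 3 tested 15349. Where a compared group held 1 mouse, its spread was taken from the other groups, and no conclusion is drawn from those counts of calls. The members' median ranged from -2.04 to 0.13 for baseline butyrate against CTL. For HDM in butyrate-treated mice it ranged from -1.46 to 0.86. The outer values were those without mouse 1 (-2.04 and 0.86) or mouse 3. For baseline butyrate against CTL, the median over all tested genes was -0.02 without mouse 1 and -0.01 without mouse 3. For Myh7, Tnni1 and Tnnc1 counts are few, and small differences were not detectable at this depth.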

Other observations

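Genes of fetal and regenerating muscle were at low levels in every library. Myh3, the embryonic myosin heavy chain, was at 1.50 and 0.996 CPM in baseline CTL skin, at 2.47 and 0.238 CPM in baseline butyrate mice 1 and 3, at 0.532 and 2.39 CPM in lesional CTL skin, and at 1.52 and 0.789 CPM in lesional butyrate skin, and Myh8, the perinatal form, at 19.6 and 14.4 CPM in baseline CTL skin, at 16.0 and 3.04 CPM in baseline butyrate mice 1 and 3, at 6.55 and 8.01 CPM in lesional CTL skin, and at 7.62 and 5.85 CPM in lesional butyrate skin. The myogenic factors Myod1 and Myog were at 3.42 to 11.6 CPM and 2.47 to 14.1 CPM over the 8 libraries, and Myf6, the factor of mature fibres, at 9.88 to 60.8 CPM, each lowest in baseline butyrate mouse 3. Mstn, the secreted brake on muscle growth, was at 147 and 189 CPM in baseline CTL skin, at 234 and 58.9 CPM in baseline butyrate mice 1 and 3, at 29.2 and 44.4 CPM in lesional CTL skin, and at 18.6 and 40.7 CPM in lesional butyrate skin, with all 4 lesional libraries below all 4 baseline libraries. Its log2 fold-change with HDM was -2.19 ± 0.69 in CTL mice and -2.30 ± 0.70 in butyrate-treated mice, with FDRs of 0.173 and 0.288 in edgeR, so it was not called with all 8 mice. Without baseline butyrate mouse 3, edgeR called it lower in both.

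Foxo1 and Foxo3, transcription factors that many tissues share, went against the order of the muscle genes in baseline butyrate mouse 3. Foxo3 was at 83.0 and 77.0 CPM in baseline CTL skin, at 75.3 and 148 CPM in baseline butyrate mice 1 and 3, at 61.3 and 67.3 CPM in lesional CTL skin, and at 83.7 and 80.6 CPM in lesional butyrate skin, and Foxo1 at 60.0 and 52.4 CPM in baseline CTL skin, at 56.8 and 91.9 CPM in baseline butyrate mice 1 and 3, at 45.9 and 45.1 CPM in lesional CTL skin, and at 55.0 and 57.5 CPM in lesional butyrate skin. For both genes that mouse had the highest level of the 8 libraries.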
